A study of Homo sapiens with 12 samples.

Results

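The claudins and their partners at the tight junction were followed in 3 established human renal carcinoma lines in which miR-29 activity was raised or lowered. The 10 genes, picked by symbol from the 58051 genes of each count file, were the claudins CLDN1, CLDN2, CLDN3, CLDN4, CLDN7, CLDN10 and CLDN12, together with OCLN (occludin), F11R (the junctional adhesion molecule JAM-A) and TJP1 (the scaffold protein ZO-1). They were chosen with the changes and the baseline levels in these same libraries known, so those values are given as a description and no p-value is attached to them. Total RNA was sequenced after ribosomal depletion in 12 libraries. 786-O cells received a miR-29 mimic (1 library) or a control mimic (1 library), A-498 cells received the miR-29 mimic (2 libraries) or the control mimic (2 libraries), and ACHN cells received a miR-29 inhibitor (3 libraries) or a control inhibitor (3 libraries). All cells were reverse-transfected at 10 nM with the same lipid reagent and harvested 48 h later. The study's methods call the replicates biological. Each line is 1 cancer culture, the 786-O values have no replicate, and the mimic and the inhibitor were never used in the same line, so the reagent and the line cannot be told apart. Further A-498 libraries, which the study set aside because they may have been mislabelled, were not analysed here.

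Tight junctions are belts of strands near the top of epithelial cells that seal the space between neighbours and set which ions and solutes pass along it. Claudins form the strands, and each nephron segment has its own set, some sealing and some forming channels. Occludin joins the strands, JAM-A helps to place the junction, and ZO-1 links the complex to actin. The miR-29 family lowers the level of mRNAs whose 3′ UTR pairs with its seed, and extracellular matrix genes are its best-known targets in kidney and other tissues.

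Mature miR-29 sequences (RefSeq, GRCh38.p14) are shown because all comparisons rest on their shared seed, bases 2 to 8, in capitals.
miR-29a-3p: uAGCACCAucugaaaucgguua
miR-29b-3p: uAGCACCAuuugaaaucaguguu
miR-29c-3p: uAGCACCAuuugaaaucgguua
The seed pairs with TGGTGCT (a 7mer-m8), and a following A makes the 8mer TGGTGCTA. The weaker 7mer-A1 is GGTGCTA without the leading T. In the longest annotated 3′ UTR of each gene (GENCODE v44, GRCh38), 3 of the 10 genes held a 7mer-m8 or an 8mer, namely CLDN1, OCLN and F11R. One was present in 15% of the 19248 protein-coding genes that have a 3′ UTR. The transcribed strand around the CLDN1 and F11R matches is printed below with the match in capitals.
CLDN1, 8mer 1638 nt after the stop codon, chr3:190306632-190306639, minus strand: gatttgagtctTGGTGCTAtcaatcaccgt
F11R, 7mer-m8 990 nt after the stop codon, chr1:160997875-160997881, minus strand: agatgtgcctgTGGTGCTgtggagatgtg
A 7mer-A1 lay in CLDN1 at 2110 nt, in F11R at 44 nt and in CLDN12 at 1036 nt, and CLDN12 had no other match. The 3′ UTRs of CLDN2, CLDN3, CLDN4, CLDN7, CLDN10 and TJP1 held none of the 3 words. The OCLN match was in 9 of 10 annotated transcripts and the F11R match in 2 of 3. A match is a description of the sequence and not evidence of binding.

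**Figure D1:**
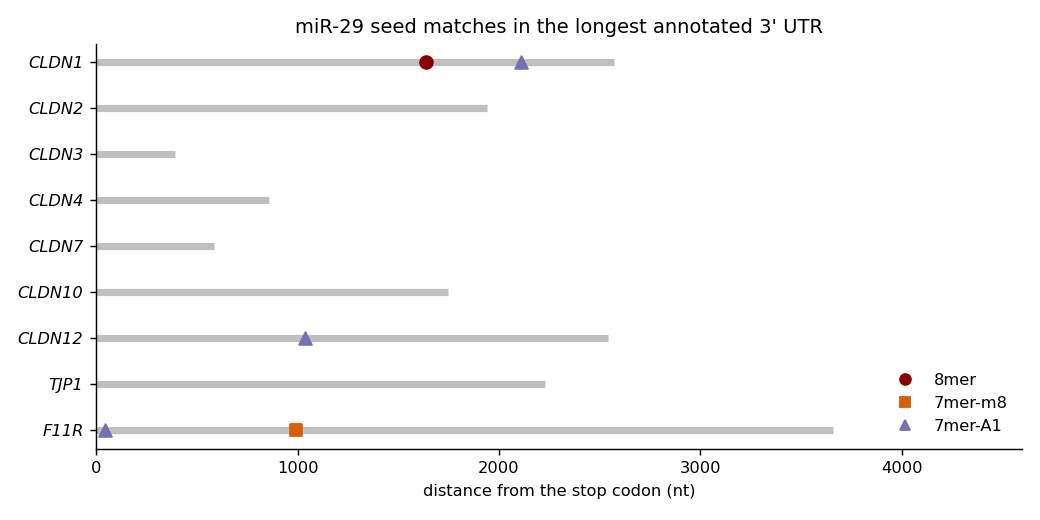
Position of miR-29 seed matches along the longest annotated 3′ UTR of 9 of the 10 genes (OCLN is not drawn), with distance from the stop codon in nt on the horizontal axis and 1 grey bar per gene. CLDN1 carries an 8mer at 1638 nt, F11R carries a 7mer-m8 at 990 nt, and 6 genes carry no match.

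Between 39919554 and 70027392 reads fell in genes in each library, and every pair of replicates differed by more than counting error. Of 7 collagen, matrix and DNA-modifying genes listed as known miR-29 targets, 6 could be measured, and all 6 were lower under the mimic (786-O, A-498) and higher under the inhibitor (ACHN). COL4A1, for example, had log2 changes of -2.42 and -2.44 with the mimic (786-O, A-498) and of 1.59 with the inhibitor. In every line 9 of 11 renal epithelial markers reached 1 CPM (counts scaled to library size) in at least 1 library, and the 4 endothelial and the 4 leukocyte markers summed to at most 3.35 and 0.667 CPM. The renal epithelial markers summed to 2012 CPM in the 786-O control and 2100 CPM in its mimic library, to 2359 and 2473 CPM against 2923 to 3000 CPM in A-498, and to 3521 to 3791 CPM against 3057 to 3242 CPM in ACHN. The 4 fibroblast markers summed to 23.6 CPM in the 786-O control and 10.2 CPM in the mimic library, with DCN at 0 in both, to 1.72 and 1.77 CPM against 0.667 and 0.851 CPM in A-498, and to 1.64 to 2.02 CPM against 2.93 to 3.69 CPM in ACHN. The part of these shifts in the values below was not tested. Because these are bulk samples, fewer cells with a transcript cannot be told apart from less of it per cell.

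CLDN1 and F11R were lower under the mimic in both lines and higher under the inhibitor, by the widest margins among the genes that did so and passed the count filter in all 3 lines. A gene is said to be called higher or lower where the edgeR quasi-likelihood test gave an adjusted p under 0.05 over all genes tested in that line and, in 786-O, where the log2 ratio passed 2-fold with no test. For the 10 genes a call is a description only. CLDN1 (ENSG00000163347, chromosome 3, 190305707 to 190322446, minus strand), a sealing claudin, was at 26.8 CPM in the 786-O control library and 5.63 CPM in the mimic library. In A-498 it was at 49.3 and 49.8 CPM in the controls and at 17.4 and 16.2 CPM with the mimic. In ACHN the 3 control inhibitor libraries held 246, 243 and 243 CPM and the 3 inhibitor libraries held 530, 484 and 523 CPM. All mimic libraries were therefore below, and all inhibitor libraries above, the controls of their line. The log2 change was -2.28 in 786-O, -1.54 (SE 0.0570) in A-498 and 1.05 (SE 0.0404) in ACHN. The ratio in 786-O was 0.210, with a 95% counting interval of 0.182 to 0.241 that covers sampling of reads only.

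F11R (ENSG00000158769, chromosome 1, 160995211 to 161021343, minus strand) encodes JAM-A, an immunoglobulin-like adhesion protein. Its level was 17.9 CPM in the 786-O control library and 4.80 CPM with the mimic. In A-498 the controls were at 93.5 and 102 CPM and the mimic libraries at 32.1 and 33.1 CPM. In ACHN the controls were at 45.8, 47.0 and 46.8 CPM and the inhibitor libraries at 76.2, 76.5 and 85.7 CPM. As for CLDN1, no treated library overlapped the controls of its line. The log2 change was -1.93 in 786-O (CPM ratio 0.268, 95% counting interval 0.228 to 0.313), -1.57 (SE 0.0528) in A-498 and 0.75 (SE 0.0489) in ACHN. In GENCODE v44, 36.6% of the exonic length of F11R is shared on the same strand with the read-through gene ENSG00000270149. Reads in that stretch cannot be assigned to 1 gene by strict counting where the annotation used holds both, so the level of F11R may be understated alike in all libraries.

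**Figure D2:**
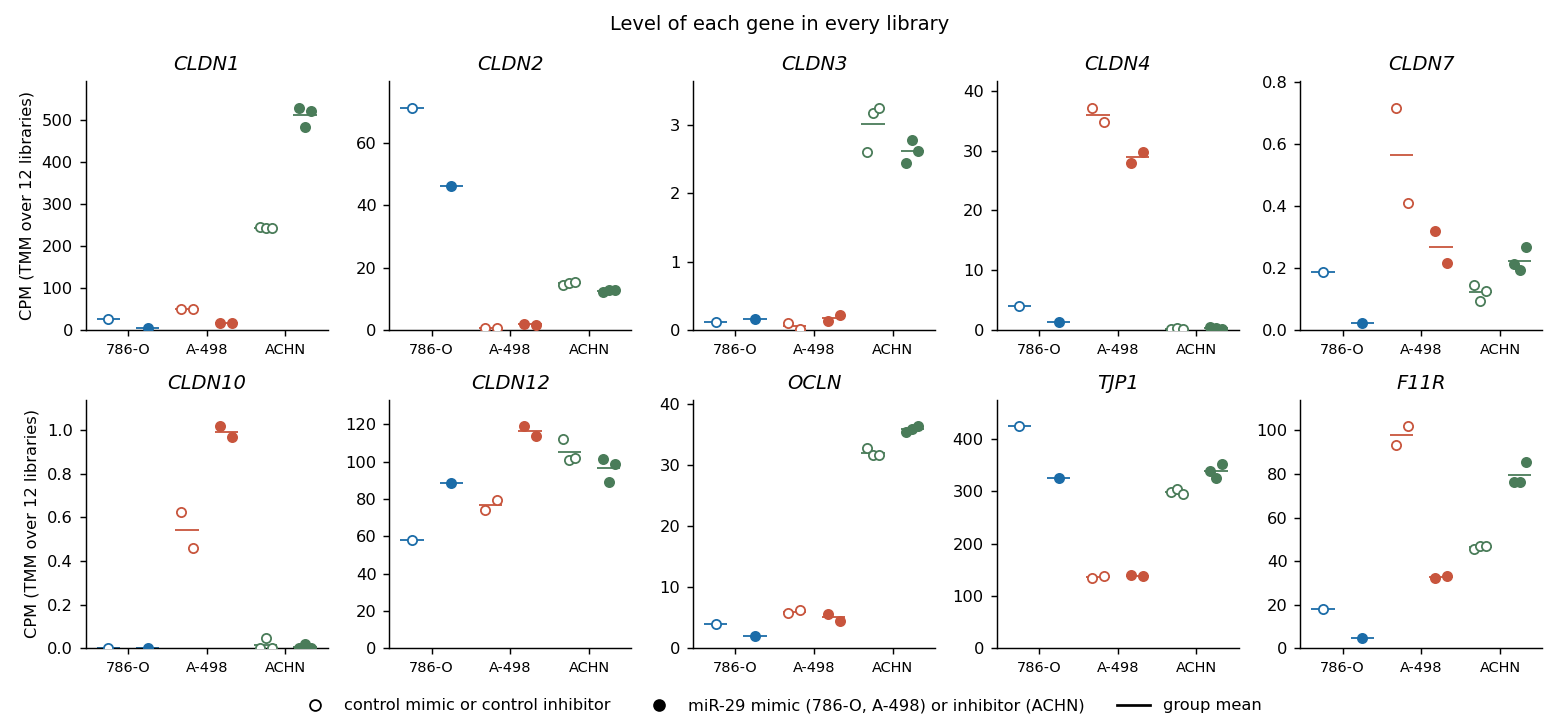
CPM of each of the 10 genes in each of the 12 libraries, on a linear axis from 0 for each gene. Open points are controls, filled points are miR-29 mimic (786-O, A-498) or inhibitor (ACHN) libraries, and bars are group means. For CLDN1 and F11R the mimic points lie under their controls and the inhibitor points over them. TJP1 stays between 134 and 140 CPM in the 4 A-498 libraries. In 786-O it is at 425 CPM in the control and 326 CPM with the mimic, and in ACHN its inhibitor points lie over the controls.

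Occludin also carried a seed match, and its differences were smaller than those of CLDN1. OCLN (ENSG00000197822, chromosome 5, 69492292 to 69558104, plus strand) was at 4.03 CPM in the 786-O control and 2.03 CPM in the mimic library. In A-498 its controls were at 5.71 and 6.34 CPM and its mimic libraries at 5.67 and 4.55 CPM, which do not overlap but nearly touch. In ACHN its controls were at 32.7, 31.6 and 31.7 CPM and its inhibitor libraries at 35.4, 35.9 and 36.3 CPM. The inhibitor libraries were all above the controls. The log2 change was -1.01 in 786-O (CPM ratio 0.505, 95% counting interval 0.385 to 0.657), -0.22 (SE 0.115) in A-498 and 0.14 (SE 0.0465) in ACHN. The A-498 value did not pass the threshold and the ACHN value did, but the ACHN call was lost when DESeq2 was used (0.13) and when any of 5 single libraries was left out (0.13 to 0.15).

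TJP1 (ENSG00000104067, chromosome 15, 29699367 to 29968915, minus strand), the scaffold beneath the strands, had no seed match in its 3′ UTR and was among the most abundant of the 10 transcripts. It was at 425 CPM in the 786-O control and 326 CPM with the mimic, a log2 change of -0.42 (CPM ratio 0.768, 95% counting interval 0.751 to 0.785). In A-498 the controls were at 134 and 139 CPM and the mimic libraries at 140 and 138 CPM. These overlap, and the log2 change was 0.04 (SE 0.0393). In ACHN the controls were at 298, 305 and 294 CPM and the inhibitor libraries at 338, 326 and 352 CPM, a log2 change of 0.15 (SE 0.0401) with no overlap.

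CLDN12, an atypical claudin that lacks the usual scaffold-binding tail, moved opposite to CLDN1. CLDN12 (ENSG00000157224, chromosome 7, 90383721 to 90513402, plus strand) was at 58.2 CPM in the 786-O control and 88.5 CPM in the mimic library, a CPM ratio of 1.52 with a 95% counting interval of 1.45 to 1.60. In A-498 it was at 74.2 and 79.4 CPM in the controls and at 119 and 114 CPM with the mimic. In ACHN the controls were at 112, 101 and 102 CPM and the inhibitor libraries at 101, 89.2 and 98.9 CPM. The A-498 groups were well apart, whereas the ACHN groups overlapped. The log2 change was 0.57 in 786-O, 0.61 (SE 0.0460) in A-498 and -0.14 (SE 0.0538) in ACHN. The ACHN call was lost in the fit over all 12 libraries (-0.12) and without control replicate 1 or 2 or inhibitor replicate 2 or 3 (-0.17 to -0.10). Other genes share 17.6% of the exonic length of CLDN12 on its strand.

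CLDN2 and CLDN10 form channels for small ions along the paracellular path, CLDN2 in the proximal tubule of the nephron. CLDN2 (ENSG00000165376, chromosome X, 106900164 to 106930861, plus strand) was at 71.2 CPM in the 786-O control and 46.2 CPM with the mimic (CPM ratio 0.649, 95% counting interval 0.612 to 0.687). In A-498 it was at 0.645 and 0.706 CPM in the controls and at 2.04 and 1.73 CPM with the mimic. In ACHN its controls held 14.55, 15.02 and 15.27 CPM and its inhibitor libraries held 12.1, 12.7 and 12.7 CPM. The mimic library was thus below its control in 786-O, while both mimic libraries were above their controls in A-498. The log2 change was -0.66 in 786-O, 1.49 (SE 0.192) in A-498 and -0.28 (SE 0.0654) in ACHN.

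CLDN10 (ENSG00000134873, chromosome 13, 95433604 to 95579759, plus strand) had 0 counts in both 786-O libraries, which allows up to 0.0668 and 0.0676 CPM (a floor of 3 counts per library). In ACHN it had at most 2 counts in any library, under the same floor. In A-498 it was at 0.627 and 0.460 CPM in the controls and at 1.02 and 0.967 CPM with the mimic, with a log2 change of 0.89 (SE 0.238). The A-498 call was lost under DESeq2 (0.87) and without control replicate 3 (0.66). At 28 to 67 counts per library, the CLDN10 difference rests on few reads.

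CLDN3, CLDN4 and CLDN7 are claudins of the collecting duct and of many other epithelia, and CLDN3 and CLDN4 are neighbours on chromosome 7. CLDN4 (ENSG00000189143, 73799542 to 73832690, plus strand) was at 4.05 CPM in the 786-O control and 1.25 CPM with the mimic, a CPM ratio of 0.309 with a 95% counting interval of 0.223 to 0.423. In A-498, where it was highest, the controls were at 37.2 and 34.9 CPM and the mimic libraries at 28.0 and 29.8 CPM. In ACHN all 6 libraries were at or below 0.423 CPM, and the groups overlapped. The log2 change was -1.69 in 786-O and -0.31 (SE 0.0579) in A-498. The ACHN value, 0.32 (SE 0.446), changed sign without control replicate 3 (-0.05) or inhibitor replicate 1 (-0.11).

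CLDN3 (ENSG00000165215, chromosome 7, 73768997 to 73770270, minus strand) was above 1 CPM only in ACHN, where its controls held 2.60, 3.17 and 3.25 CPM and its inhibitor libraries held 2.44, 2.78 and 2.62 CPM. These overlap, and the log2 change was -0.22 (SE 0.124). Its counts were 5 and 7 in the 786-O libraries (log2 change 0.36, CPM ratio 1.43, 95% counting interval 0.3905 to 5.71) and between 1 and 13 in A-498. CLDN7 (ENSG00000181885, chromosome 17, 7259903 to 7263983, minus strand) was below 1 CPM in all 12 libraries. In A-498 its controls were at 0.716 and 0.410 CPM and its mimic libraries at 0.319 and 0.217 CPM, a log2 change of -1.03 (SE 0.363). That call was lost under DESeq2 (-1.06), without control replicate 1 (-0.60) and without mimic replicate 2 (-0.79). In 786-O CLDN7 had 8 counts in the control and 1 in the mimic library, a CPM ratio of 0.128 with a 95% counting interval of 0.00288 to 0.952. In ACHN, with 4 to 18 counts per library, it was too low to be tested, although its inhibitor libraries (0.211, 0.193 and 0.266 CPM) were all above its controls (0.145, 0.0946 and 0.125 CPM).

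**Figure D3:**
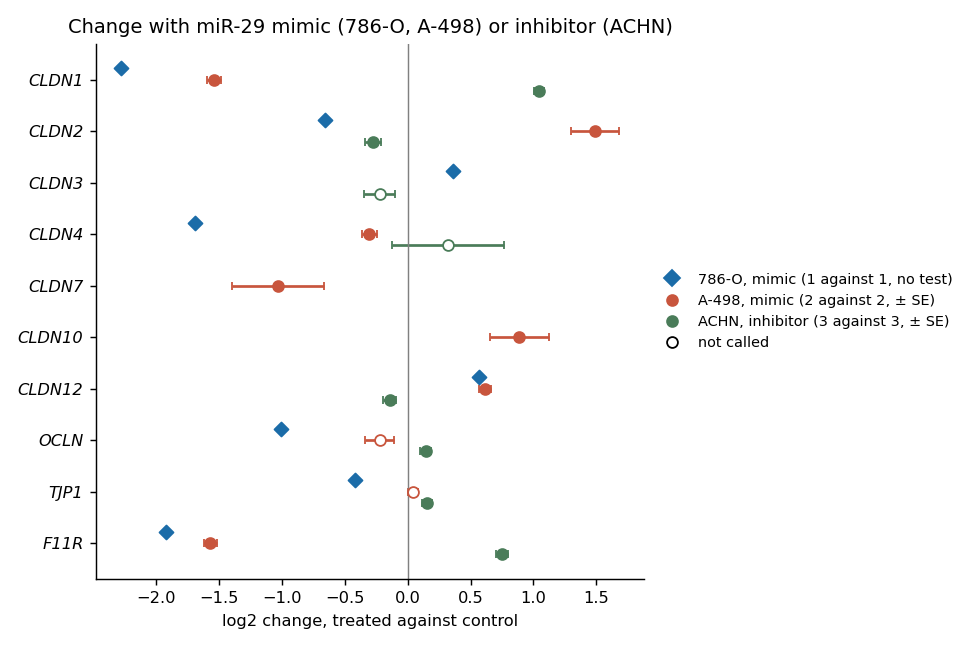
Log2 change of each gene, treated against control, in 786-O (diamonds, 1 library per group), A-498 and ACHN (circles with SE). Open circles did not pass the edgeR threshold, and genes with too few counts in a line have no symbol there. CLDN1 is at -2.28, -1.54 and 1.05, and CLDN2 is at -0.66 in 786-O and 1.49 in A-498.

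Counted over the 10 genes, 9 passed the filter on low counts in A-498, where 3 were higher (CLDN2, CLDN10 and CLDN12), 4 lower (CLDN1, CLDN4, CLDN7 and F11R) and 2 not called. The edgeR quasi-likelihood test called 52.5% of all 19676 tested genes in A-498, 25.5% higher and 27% lower. The CPM groups did not overlap for 8 of the 9, against 74.4% of all tested genes. With library size in place of TMM, 58.7% of all A-498 calls were higher rather than 48.6%. The filter kept 8 genes in ACHN, with 4 higher (CLDN1, OCLN, TJP1 and F11R), 2 lower (CLDN2 and CLDN12) and 2 not called. Of all tested genes there, 31.7% of 17904 were called, 17.3% higher and 14.4% lower. In 5 of the 8 the CPM groups were apart, against 42.7% of all tested genes. In 786-O 8 genes were kept, and 4 of them (CLDN1, CLDN4, OCLN and F11R) were lower by at least 2-fold and 0 higher, against 8.96% of all 20370 genes lower and 6.73% higher. OCLN was just inside that limit at -1.01 and fell outside it when library size or DESeq2 size factors replaced TMM, and CLDN2, at -0.66, was the next outside. Since the genes were selected with these changes known, nothing is read from the counts. The genes that failed a filter were CLDN7 and CLDN10 in 786-O and ACHN, and CLDN3 in A-498.

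The control libraries differed in which junction transcripts they held. Levels between genes are given in CPM per kb of exon (the union of all annotated exons). In the 786-O control TJP1 was highest at 37.5 CPM per kb, followed by CLDN2 at 20.9, CLDN12 at 8.67, CLDN1 at 7.40 and F11R at 3.54 CPM per kb. In A-498 the order was F11R at 19.3 (SD 1.18, n = 2), CLDN1 at 13.6, TJP1 at 12.1, CLDN12 at 11.4 and CLDN4 at 7.67 CPM per kb, and TJP1 and CLDN12 overlapped between libraries. In ACHN CLDN1 was highest at 67.3 (SD 0.476, n = 3), ahead of TJP1 at 26.5, CLDN12 at 15.6, F11R at 9.19, CLDN2 at 4.38, OCLN at 2.84 and CLDN3 at 2.36 CPM per kb. The remaining genes were below 1 CPM per kb, and among them CLDN7 overlapped both CLDN2 and CLDN10 in A-498 and CLDN4 in ACHN. The A-498 order depended on the length used: per kb of the canonical transcript, a choice made after seeing the data, CLDN12 (21.7), CLDN4 (21.3), F11R (21.1) and TJP1 (19.0) all came ahead of CLDN1 (14.4 CPM per kb). In ACHN it placed OCLN (5.18) ahead of CLDN2 (5.05 CPM per kb), and it left the first 5 genes of 786-O in the same order.

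Of 24 claudin genes measured, 5 reached a mean of 1 CPM in the 786-O and A-498 controls and 8 in the ACHN controls. The prominent claudin that is not among the 10 genes was CLDN16, known from the thick ascending limb where it is needed for magnesium and calcium reabsorption, and it is named here after its values were seen. It was at 281, 270 and 269 CPM in the ACHN controls and at 306, 277 and 305 CPM in the inhibitor libraries, which overlap (log2 change 0.09, SE 0.0432, edgeR adjusted p = 0.109), while it stayed below 1 CPM in all 786-O and A-498 libraries. As a share of the summed claudin CPM per kb, CLDN1 made up 17.8% in the 786-O control and 4.62% in the mimic library. In A-498 the CLDN1 share was 31.9% and 33.1% in the controls and 12.7% and 12% with the mimic. In ACHN it was 35.5%, 36.2% and 36.1% in the controls and 52.5%, 52.0% and 52.0% with the inhibitor. CLDN12 took the opposite course, with 20.8% and 39.3% in the control and mimic libraries of 786-O, 25.98% and 28.54% against 47.0% and 45.6% in A-498, and 8.78%, 8.13% and 8.16% against 5.43%, 5.18% and 5.33% in ACHN. Shares sum to a fixed total, so a lower CLDN1 alone, with the other claudins unchanged, would raise all the other shares. CLDN2 was the largest share only in 786-O, at 50.1% in the control and 40.3% in the mimic library, and CLDN16 was the largest in the ACHN controls, at 43.4% to 44.3%. Per kb of the canonical transcript the CLDN1 share in A-498 was smaller, 19.7% and 20.6% in the controls and 7.19% and 6.74% with the mimic, and CLDN12 (46.5%) exceeded CLDN2 (28.98%) in the 786-O mimic library.

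**Figure D4:**
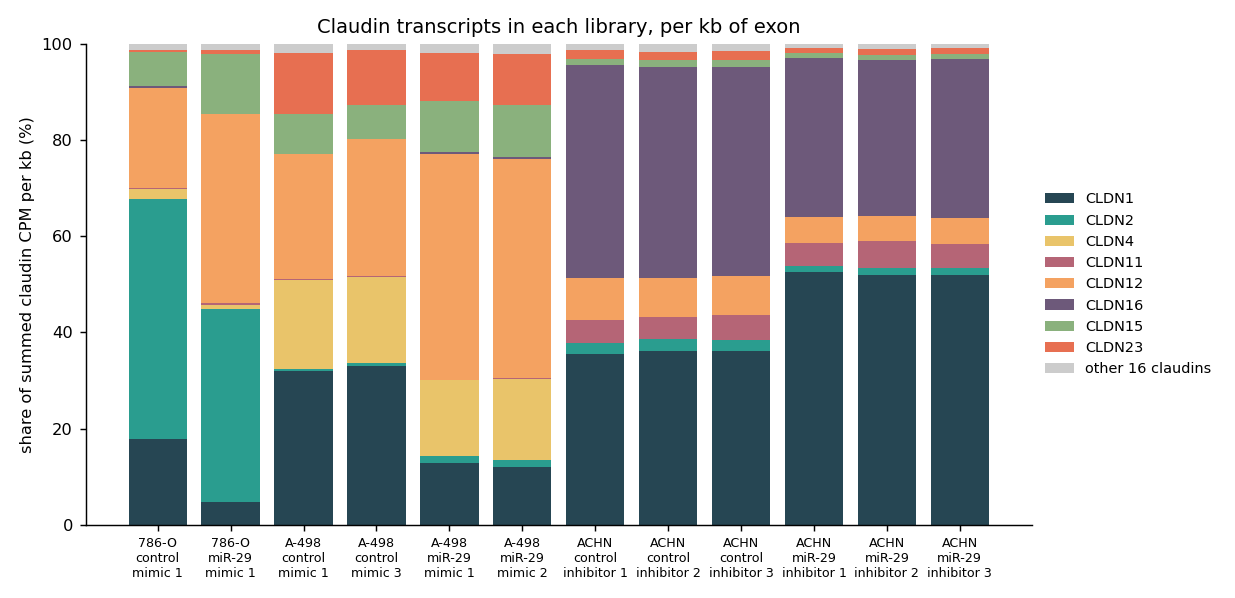
Make-up of the claudin transcripts in each of the 12 libraries, as percent of the summed CPM per kb of exon of 24 claudin genes, with 8 shown in colour. CLDN1 takes 31.9% and 33.1% in the A-498 controls and 12.7% and 12% with the mimic, and rises from about 36% to 52% in the ACHN libraries with inhibitor.

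Promoter windows from RefSeq, 250 bases before to 50 after each annotated start (GRCh38.p14), were searched for CAGGTG and its reverse complement CACCTG, the E-box read by the repressors Snail, Slug and ZEB. F11R had no window. Of the 16 windows of the other 9 genes, 5 held the word, namely 1 window each of CLDN3, CLDN7 and TJP1 and both windows of OCLN, and 20.6% of all 35116 windows held it. The CLDN7 window at chr17:7262429-7262728 held it 5 times. The windows of CLDN1, CLDN2, CLDN4, CLDN10 and CLDN12 held none.

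The other components of the junction were followed with 5 lists of 77 genes in all, set by role. In A-498, 56 were tested, and 22 were higher and 16 lower with the mimic (67.9%, against 52.5% of all genes), with a median log2 change of 0.04 against 0.0045 for all genes. In ACHN, 54 were tested, and 10 were higher and 7 lower with the inhibitor (31.5%, against 31.7%), with a median of 0.02. In 786-O, 55 were kept, and 2 were higher and 4 lower by at least 2-fold (10.9%, against 15.7% of all genes). The shares of all tested genes called, 52.5% in A-498 and 31.7% in ACHN, are the background for each list count below. All adjusted p-values below are from edgeR over all tested genes.

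Among 14 other membrane proteins, 10 were tested in each replicated line. In A-498, 4 were higher and 1 lower, and in ACHN 3 were higher and 2 lower. MARVELD2 (tricellulin), the occludin relative that seals the corners where 3 cells meet, was at 15.7 and 16.2 CPM in the A-498 controls and at 5.30 and 5.20 CPM with the mimic. Its log2 change was -1.59 (SE 0.0789, adjusted p = 7.59e-10), and its 3′ UTR held the seed match. In ACHN it rose by 0.27 (adjusted p = 5.25e-03), a call lost without control replicate 3 (0.21), whereas in 786-O it was below 0.5 CPM in both libraries. CRB3, an apical polarity protein, rose from 0.504 to 1.33 CPM in A-498 (log2 change 1.41, SE 0.215, adjusted p = 6.88e-05) and fell from 9.59 to 7.57 CPM in ACHN (log2 change -0.37, adjusted p = 6.08e-03). CXADR, the coxsackievirus and adenovirus receptor, rose from 1.79 to 2.73 CPM in ACHN (log2 change 0.58, adjusted p = 2.34e-03), and in 786-O it was at 111 CPM in the control and 17.7 CPM in the mimic library, a log2 change of -2.68. In A-498 it was below 0.3 CPM in every library.

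Junction plaque proteins sit under the membrane and tether the strands. All 17 were tested in A-498, where 6 were higher and 9 lower with a median of -0.22, and in ACHN 3 were higher and 1 lower with a median of -0.03. The shares called were 88.2% in A-498, against 52.5% of all tested genes, and 23.5% in ACHN, against 31.7%. The list was chosen with earlier results known, so nothing is read from these shares. AMOTL1, an angiomotin-like scaffold, rose from 0.419 to 1.96 CPM in A-498 (log2 change 2.23, SE 0.205, adjusted p = 4.67e-07). It was far more abundant in the other lines and changed little there. In 786-O it was at 80.2 CPM in the control and 91.8 CPM with the mimic (log2 change 0.16). Its ACHN means were 84.9 and 86.2 CPM (log2 change -0.001, adjusted p = 0.99).

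Of 16 polarity and assembly genes, 14 were tested in A-498 (6 higher, 3 lower) and 15 in ACHN (2 higher, 3 lower). PALS1, which joins the Crumbs complex to the junction, fell from 96.8 to 54.3 CPM in A-498 (log2 change -0.82, SE 0.0528, adjusted p = 1.08e-08) and had a log2 change of -0.89 in 786-O. In ACHN it was not called (log2 change 0.085, adjusted p = 0.198), and the groups overlapped. LLGL2, a basolateral polarity protein, fell from 7.60 to 5.80 CPM in ACHN (log2 change -0.42, adjusted p = 1.65e-03) and rose from 20.3 to 26.2 CPM in A-498 (log2 change 0.38, adjusted p = 6.71e-04). Among the other claudins, CLDN11, which forms strands in myelin and between Sertoli cells, rose from 39.5 to 59.7 CPM in ACHN (log2 change 0.57, SE 0.0479, adjusted p = 4.32e-08). It was the single other claudin called there of 4 tested, and in A-498 5 were tested, 2 higher and 1 lower.

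The transcription factors were listed for their known control of claudin and occludin genes. In A-498, 10 of 13 were tested, with 4 higher and 2 lower, and in ACHN 8 were tested, with 1 higher and 1 lower. GRHL3, an activator of epithelial junction genes, rose from 0.351 to 1.82 CPM in A-498 (log2 change 2.38, SE 0.226, adjusted p = 6.57e-07), and its 3′ UTR held a seed match. SNAI2 (Slug), a repressor of junction genes, rose from 0.942 to 1.57 CPM in ACHN (log2 change 0.72, SE 0.190, adjusted p = 6.73e-03), a call lost without inhibitor replicate 3 (0.52). SNAI1 (Snail) fell from 33.1 to 24.3 CPM in A-498 (log2 change -0.43, adjusted p = 4.11e-05), while ZEB2 rose from 31.4 to 38.2 CPM (log2 change 0.30, adjusted p = 2.28e-04). In 786-O the log2 changes of SNAI1 and ZEB2 were -0.63 and 0.43. Neither was called in ACHN with the inhibitor, where SNAI1 was also lower (-0.53, adjusted p = 0.0559) and ZEB2 was at -0.02 (adjusted p = 0.713). The groups of both genes overlapped there.

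Of the 77 genes, 75 had a 3′ UTR, and 9 held a 7mer-m8 or 8mer in the longest one. One was present in 15% of all protein-coding genes with a 3′ UTR. MARVELD2, AMOT and YBX3 were lower with the mimic in A-498 and higher with the inhibitor in ACHN. Genes without a match did so too, among them PRKCZ, at -0.50 in A-498 (adjusted p = 8.72e-05) and 0.33 in ACHN (adjusted p = 1.08e-03). The share of all genes with this pattern was not computed, so nothing is read from it. AMOT, an angiomotin scaffold, had log2 changes of -0.39 in A-498 (adjusted p = 1.30e-04), 0.23 in ACHN (adjusted p = 1.52e-03) and -1.11 in 786-O. YBX3 (ZONAB), a transcription factor held at the junction by ZO-1, had -0.25 in A-498 (adjusted p = 8.79e-05), 0.12 in ACHN (adjusted p = 0.0226) and -1.87 in 786-O, and its ACHN call was lost without any 1 of 4 libraries (0.09 to 0.13). In A-498 HNF4A had a log2 change of -0.46 (adjusted p = 1.38e-06). HNF4A was too low to be tested in ACHN and was at 0 CPM in both 786-O libraries. ILDR2, a protein of tricellular contacts, rose by 0.19 in ACHN (adjusted p = 0.0116), a call lost without control replicate 1 (0.14) or inhibitor replicate 3 (0.17). AMOTL2 and PRKCI passed in neither line. SPINT1 did not pass in ACHN and was too low to be tested in A-498. GRHL3 was the one gene of the 9 called higher with the mimic.

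**Figure D5:**
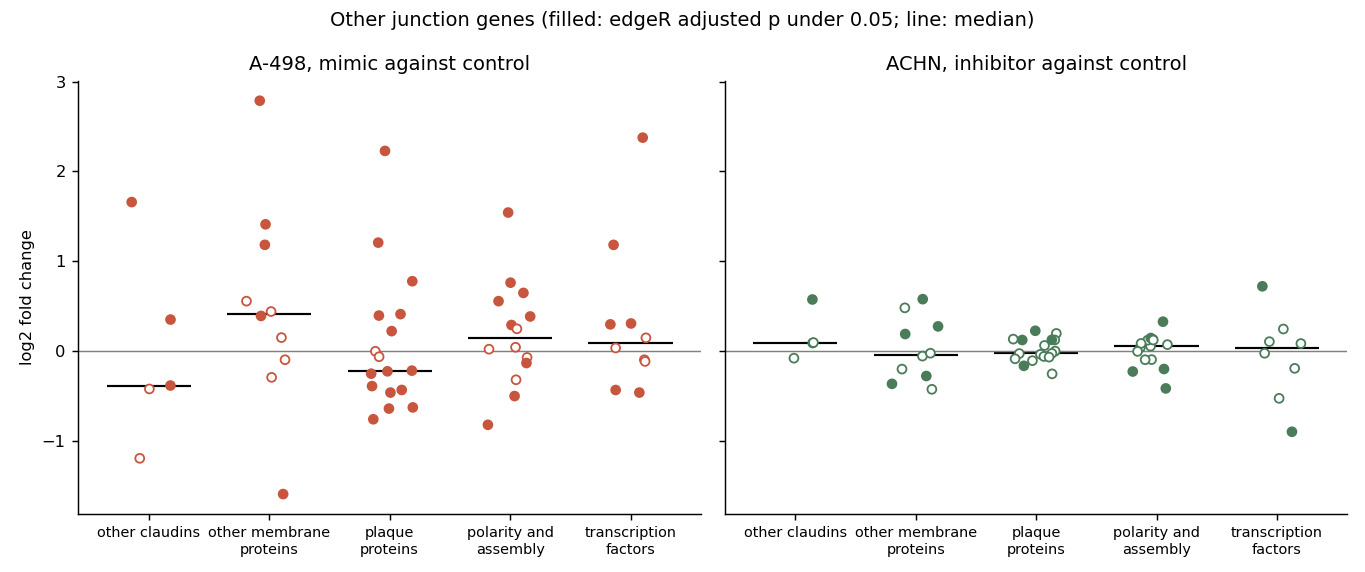
Log2 fold change of each tested gene of the 5 lists in A-498 (left, mimic) and ACHN (right, inhibitor). Filled points passed the edgeR threshold, open points did not, and black lines are list medians. In A-498 15 of 17 plaque protein genes passed (52.5% of all tested genes did), and in ACHN 4 of 17 did (31.7% of all tested genes).

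Across 8759 genes with a value in all 3 lines and an average log2 CPM of at least 3 in each, the genes whose 3 log2 changes lay nearest to those of CLDN1 were TAF11 (Euclidean distance 0.223), KLHDC3 (0.279) and TUBB2A (0.281). The values of TAF11 were -2.31 and -1.56 with the mimic (786-O, A-498) and 0.82 with the inhibitor. TUBB2A is uncertain, because its reads could be split with other, almost identical tubulins. F11R stood at rank 7 of these genes, at a distance of 0.463, whereas TJP1 stood at rank 2256 and CLDN12 at rank 8404.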

How the data were processed

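Paired-end, strand-specific libraries made after ribosomal RNA depletion were aligned by the authors to GRCh38 with HISAT2, and the raw counts per gene (Ensembl v87, HTSeq-count, intersection-strict) were deposited without normalisation. The authors also deposited DESeq2 tables with log2 fold changes, p-values and adjusted p-values for each line, which were not used. Each file held 58051 genes, 56948 of them with a symbol in GENCODE v44, and 37.2% to 48.0% of reads were assigned to no gene. Those reads were left out of the library sizes.

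The counts were fitted here in edgeR 4.0.16 (R 4.3.3) and tested by quasi-likelihood in A-498 and ACHN separately, after TMM scaling and filterByExpr, with Benjamini-Hochberg adjustment over all tested genes and a threshold of 0.05. Each SE is the absolute log2 change divided by the square root of the quasi-likelihood F. It draws on variation shared across genes and is not the spread of the replicate libraries of that gene alone. For 786-O, log2 ratios used TMM factors, a prior count of 2 and genes with at least 10 counts, with no test. Printed CPM share 1 set of TMM factors over the 12 libraries, so their ratios can differ slightly from the fitted changes. DESeq2 1.42.0, other scalings, no filter and single libraries left out were alternatives. The code was tested on simulated data. Replicates varied with a biological coefficient of variation of 3.83% (A-498) and 5.25% (ACHN). No molecular identifiers were described, so counting intervals cover counting error only.

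The 10 genes, the 77 other junction genes and the markers were chosen with earlier results of these data known. From the lists, the genes named were the 3 called higher and the 3 called lower with the largest log2 change in each of A-498 and ACHN, with average log2 CPM not under 0. A few named items are not reported here. The 3 genes nearest to the member with the largest summed change were added. SNAI1, ZEB2, CLDN16, PRKCZ and the genes with a seed match were added after their values were seen.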

Additional observations from a re-analysis of the deposited data

Results flagged for a closer look

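With the mimic, 3 of the genes named by the fixed rule had changes of opposite sign in 786-O and A-498, in that the single 786-O mimic library lay on 1 side of its control and both A-498 mimic libraries lay on the other side of theirs. CLDN2 had a log2 change of -0.66 in 786-O and 1.49 in A-498. CRB3 had -0.17 in 786-O and 1.41 in A-498, and its 95% counting interval in 786-O, a ratio of 0.735 to 1.13, spans no change. MARVELD2 had 0.061 in 786-O and -1.59 in A-498, and its 786-O interval, 0.544 to 2.13, spans no change too. Over the 10 genes and the listed junction genes, 15 of the 58 with a value in both lines had opposite signs with the A-498 groups apart, among them CLDN16 (-1.38 and 1.66), which was below 1 CPM in all libraries of both lines. The A-498 groups were apart for 74.4% of all tested genes. The share of all genes with opposite signs as well was not computed, so nothing is read from this count. The differences between the lines were not tested, since 786-O has 1 library per group. No group had the 4 libraries needed to look for a library far from the others.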

How the results depend on the processing

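CLDN1, F11R, CLDN2 and, in A-498, CLDN4 and CLDN12 kept their calls and directions under every alternative run. So did TJP1 in ACHN. Counts of calls stayed within 1.5 times under every alternative in A-498 and ACHN. With each library left out in turn, A-498 gave 8356 to 10425 called genes, 6 to 8 of the 10 genes and 34 to 41 of the other junction genes, and ACHN gave 4555 to 6112, 4 to 5 and 13 to 23. In 786-O, dropping the filter raised the genes past 2-fold from 3197 to 5712, since it admits genes with few counts. The A-498 value for OCLN passed the threshold in the fit over all 12 libraries (-0.24) and without control replicate 1 (-0.30) or mimic replicate 1 (-0.40), and that for TJP1 with library size (0.12). CLDN4 in ACHN reversed without control replicate 3 (-0.05) or inhibitor replicate 1 (-0.11) and reached 0.81 without control replicate 2. The causes were not tested.

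No paired analysis was possible for A-498 because its groups share only replicate number 1. In ACHN the same-numbered libraries deviated with correlations of 0.217, -0.157 and -0.0586, and differently numbered ones with -0.282 to 0.266. With 3 libraries per group, each centred on its group mean, these values cannot settle whether the numbers pair them. A replicate block there gave 5763 called genes against 5680, with 6 of the 10 genes in both fits and 18 against 17 other junction genes. Genes under about 1 CPM rest on few reads in every library.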
